A study of Mus musculus with 6 samples.

Results

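The genes described here carry thyroid hormone action in brown fat: Dio2, Thra, Thrb, Slc16a10, Rxra, Rxrb, Rxrg, Ncor1 and Med1. They were taken by symbol from the deposited count table, and all 9 were found among its 35975 rows with counts. The tissue was interscapular brown adipose tissue of C57BL/6 mice, the heat-producing depot between the shoulder blades, sequenced as messenger RNA libraries. Olfm4CKO mice carry Olfm4 flox/flox alleles and Ucp1-Cre, in which a promoter active in brown adipocytes drives Cre, so other cells of the depot are not the target of the deletion. The genotype label of the other group is Ctrl, with nothing on floxed alleles or Cre. Titles of the Olfm4CKO samples begin with "KO" and those of Ctrl with "Ctrl", as their genotype labels have it. Every title, Olfm4CKO included, ends in "Olfm4 WT", and for Olfm4CKO that ending goes against the genotype label. Samples were grouped by the genotype label. Age, sex, housing temperature and treatment are not stated. Each group has 3 libraries, and replicates 1 and 2 of each could be used per gene.

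Brown adipocytes make much of their own active thyroid hormone. The type 2 deiodinase encoded by Dio2 removes an iodine from the prohormone thyroxine (T4) to give triiodothyronine (T3), and noradrenaline induces Dio2 through cyclic AMP when an animal is cold. T3 then binds the nuclear receptors encoded by Thra and Thrb, which sit on DNA as dimers with a retinoid X receptor (RXR); without hormone they hold corepressors such as NCoR1, and with hormone they recruit coactivators and the Mediator complex through MED1.

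Total counts of the 4 libraries ranged from 15346705 to 17309325. Values in the replicate 3 columns did not follow the gene names: their Spearman correlation with the other 4 libraries across rows lay between -0.0209 and -0.0156, against 0.9399 to 0.947 among those 4. Olfm4 had 0 counts in every library used, Ctrl included. A count of 0 leaves room for 0.193 and 0.195 CPM (reads scaled to library size) in Olfm4CKO replicates 1 and 2. In Ctrl replicates 1 and 2 it leaves room for 0.188 and 0.173 CPM. The targeted gene thus gave no check of the genotype labels, nor of the title ending that goes against them for Olfm4CKO. Y-linked transcripts were present in Ctrl replicate 1 alone (Ddx3y at 81.4 CPM, 0 in the other 3), where Xist was at 0, against 215, 207 and 49.5 CPM of Xist in Olfm4CKO replicates 1 and 2 and Ctrl replicate 2. Fold changes of the 9 genes are therefore also given below with that library left out. The tissue label was met by its markers: all 9 brown adipocyte markers were detected. Their summed levels were 19080 and 10910 CPM in Olfm4CKO replicates 1 and 2, against 18160 and 23490 CPM in Ctrl replicates 1 and 2. All 9 had a log2 fold change (Olfm4CKO over Ctrl) below 0, with a median of -0.30, beside -0.01 over all genes tested. Groups did not overlap for 2 of the 9 (22.2%), against 24.6% of all genes tested. In bulk tissue, fewer cells of a type and less RNA per cell cannot be told apart. Nothing in the labels assigns the libraries to separate mice. Ctrl replicates 1 and 2 differed in Y-linked transcripts and Xist, as given above, and so are not repeats of a single animal. For the Olfm4CKO libraries these transcripts give no such distinction. Each p-value thus reflects only how far these libraries differ, which within Olfm4CKO may be technical. Endothelial markers (7 detected of 7) summed to 1570 and 1398 CPM in Olfm4CKO replicates 1 and 2, against 1059 and 942 CPM in Ctrl replicates 1 and 2. Schwann cell markers (8 detected of 8) summed to 217 and 171 CPM in Olfm4CKO, against 302 and 520 CPM in Ctrl. Groups did not overlap for either sum. They overlapped for the sums of all other cell type lists, among them stroma, with 609 and 1513 CPM in Olfm4CKO against 1173 and 1547 CPM in Ctrl. Taken as single genes, 3 of 7 endothelial markers (42.9%) lay higher in Olfm4CKO without overlap and 0 lower. Of the 8 Schwann cell markers, 5 (62.5%) lay lower without overlap and 0 higher. Of all single genes tested, 24.6% had groups that did not overlap, 11.8% higher and 12.8% lower in Olfm4CKO. The part of these cell types in the values below was not tested.

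The promoter of Dio2 is shown because it holds the element through which cyclic AMP is known to act on the human gene. The window runs from 250 bases before to 50 bases after the RefSeq start (GRCm38.p6, chr12:90738989-90739288, minus strand), which lies upstream of the GENCODE gene model. Capitals mark the palindromic cyclic AMP response element TGACGTCA, 95 to 88 bases before the start, and a TATA box (TATAAAA), 30 to 24 bases before it.
Dio2 promoter: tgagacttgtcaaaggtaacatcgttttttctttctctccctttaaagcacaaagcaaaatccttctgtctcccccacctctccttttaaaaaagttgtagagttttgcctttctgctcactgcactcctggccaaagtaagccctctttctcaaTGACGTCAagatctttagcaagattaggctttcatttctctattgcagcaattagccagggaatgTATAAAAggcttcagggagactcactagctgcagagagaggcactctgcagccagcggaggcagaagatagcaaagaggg
RefSeq windows were matched for 8 of the 9 genes, 13 windows in all, and Thra had none. TGACGTCA was found in 1 of these 13 windows, that of Dio2, and in 1.79% of all 32851 mouse windows of that length searched on both strands. The TATA box letters were in 5.48% of all windows.

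The deiodinase is a selenoprotein, and its message must be read through a TGA codon that elsewhere ends translation. GENCODE vM21 marks 2 selenocysteine codons among the 266 codons of Dio2, at codons 130 and 263. The stretch around the first of them, shown with the codon in capitals, lies at chr12:90729811-90729837 (GRCm38, minus strand).
Dio2 selenocysteine codon: ggttcagccaccTGAccacctttcact

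The core letters read by thyroid hormone receptors and their RXR partners are AGGTCA. They were in 3 of the 13 windows, searched on both strands, and in 16.3% of all windows. These are shown with the core, or its reverse complement TGACCT, in capitals, all on the plus strand: for Thrb chr14:17660764-17660793, for Rxra chr2:27709193-27709222 and chr2:27709232-27709261, and for Rxrg chr1:167618165-167618194.
Thrb core: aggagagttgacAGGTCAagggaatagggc
Rxra first core: tagaaatgggtgTGACCTgagtaatggtca
Rxra second core: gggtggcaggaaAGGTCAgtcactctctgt
Rxrg core: atcggggttgaaAGGTCAgctgaaagcttc
A match of letters describes the window and is not evidence of binding.

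None of the 9 genes differed between Olfm4CKO and Ctrl beyond the spread between libraries. In edgeR's quasi-likelihood fit to all 13573 genes that passed the filter on low counts, 0 of the 9 had a Benjamini-Hochberg adjusted p below 0.05, against 0% of all genes tested. The adjusted p was 0.9998 for each of the 9, and this value holds for every tested gene below where no other is given. At an unadjusted p below 0.05 there were 0 of the 9, against 2.11% of all genes tested and 0.612% on the side lower in Olfm4CKO; DESeq2 and limma-voom also called 0 of the 9, and 0 of the 9 had an unadjusted p below 0.05 in either. Log2 fold changes (Olfm4CKO over Ctrl) ran from -0.38 for Rxra to 0.43 for Ncor1, with 4 genes above 0 and 5 below and a median of -0.07, beside -0.01 over all genes tested. All 9 genes passed the filter on low counts. The groups did not overlap for 2 of the 9, Thra and Rxrb, both lower in Olfm4CKO; groups did not overlap for 24.6% of all genes tested, and 12.8% lay lower in Olfm4CKO. That share of 22.2% of the 9 is near the background. The smallest p that exact permutation of 2 libraries against 2 allows is 0.333 (two-sided), so no such test was run.

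**Figure D1:**
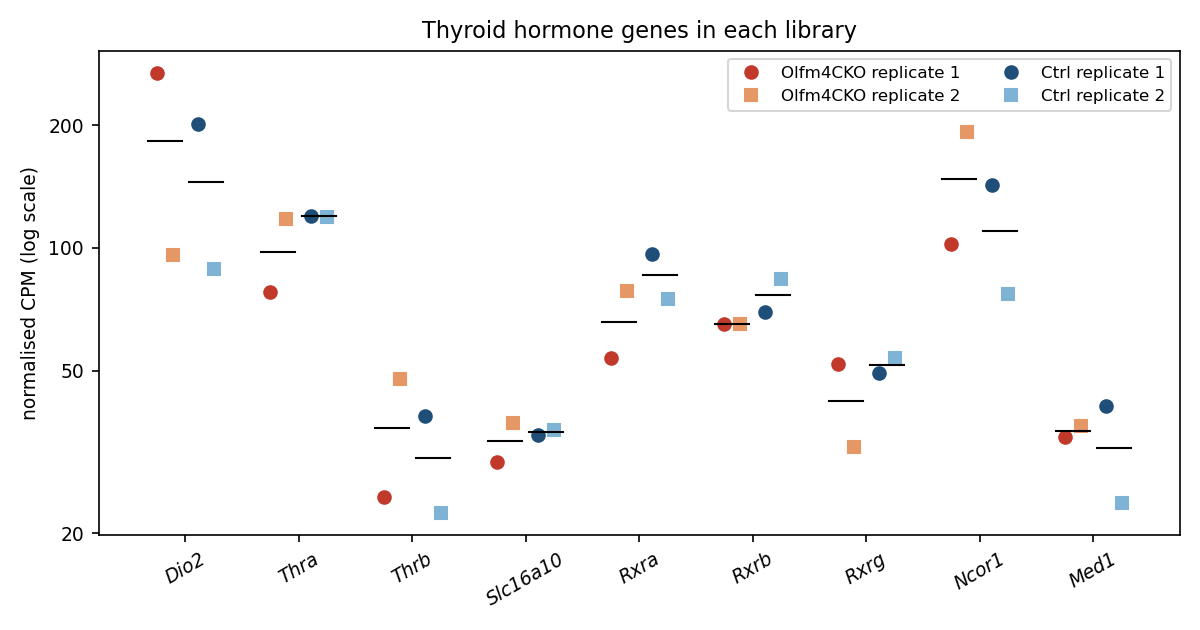
Normalised CPM (log axis) of the 9 genes in each library, with Olfm4CKO left of Ctrl for every gene, circles for replicate 1, squares for replicate 2 and black bars for group means. Dio2 spans 88.9 to 269 CPM with replicate 1 above replicate 2 in each group, while the Ctrl points of Thra and the Olfm4CKO points of Rxrb nearly coincide.

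Dio2 (chromosome 12, 90724552 to 90738438, GRCm38, minus strand) was the most variable of the 9 genes. It had 269 and 96.1 normalised CPM in Olfm4CKO replicates 1 and 2, against 201 and 88.9 CPM in Ctrl replicates 1 and 2. Replicate 1 was the high library in each group, and the groups overlapped. The ratio between replicates was 2.80 in Olfm4CKO and 2.26 in Ctrl, while the ratio of the group means was 1.26. The means were 182 ± 122 CPM in Olfm4CKO and 145 ± 79.4 CPM in Ctrl (SD, n = 2 each), and the log2 fold change was 0.33 ± 0.52 (SE), with a 95% interval from -0.81 to 1.48. Its biological coefficient of variation in the fit, the spread between libraries beyond counting noise, was 37.5%, against 25.5% to 31.8% in the other 8 genes. The sign rested on single libraries: the estimate was -0.57 without Olfm4CKO replicate 1 and -0.14 without Ctrl replicate 2, but 0.88 without Olfm4CKO replicate 2 and 1.03 without Ctrl replicate 1, where Y-linked transcripts were found. None of these 4 fits called Dio2 (edgeR adjusted p 0.987 to 1.00). Mitochondrially encoded genes took 19.2% and 16.9% of counts in Olfm4CKO replicates 1 and 2, against 19.0% and 13.7% in Ctrl replicates 1 and 2, so that share was likewise higher in replicate 1 of each group; its part in the Dio2 values was not tested.

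The 2 other deiodinase genes were at or near 0. Dio1, whose enzyme also makes T3 and is best known from liver and kidney, had 0 counts in all 4 libraries and was not tested. Dio3, whose enzyme inactivates both hormones, had 5 and 0 counts in Olfm4CKO replicates 1 and 2 and 0 and 1 counts in Ctrl replicates 1 and 2, too few to test. Dio2 was thus the deiodinase gene with measurable RNA in these libraries.

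Thyroid hormone enters cells through carriers, among them the transporter MCT10 encoded by Slc16a10, which also moves aromatic amino acids. Slc16a10 (chromosome 10, 40033532 to 40142258, minus strand) had 29.8 and 37.3 CPM in Olfm4CKO replicates 1 and 2, against 34.7 and 35.9 CPM in Ctrl replicates 1 and 2. The Ctrl libraries lay between the Olfm4CKO libraries. Its log2 fold change of -0.07 ± 0.33 (SE) was the smallest in size of the 9, with a 95% interval from -0.79 to 0.65, and its sign turned to 0.10 without Olfm4CKO replicate 1.

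Thra, encoding the receptor TRα (chromosome 11, 98740638 to 98769006, plus strand), had 77.9 and 118 CPM in Olfm4CKO replicates 1 and 2, against 120 and 119 CPM in Ctrl replicates 1 and 2. Olfm4CKO replicate 1 was the low library, and Olfm4CKO replicate 2 lay just under both Ctrl libraries. The log2 fold change was -0.29 ± 0.35 (SE), with a 95% interval from -1.06 to 0.49. Leaving out Olfm4CKO replicate 1 gave -0.0012 and leaving out Olfm4CKO replicate 2 gave -0.62, so the lower Olfm4CKO mean rested on replicate 1. Counts per gene do not separate the splice forms of Thra, of which one does not bind T3. The last exons of Thra also overlap Nr1d1 on the other strand, a clock gene encoding the repressor REV-ERBα: 263 of the 4614 exon bases of Thra, or 5.7%, are shared, and no strand setting is given for the counting. Nr1d1 had 22.8 and 57.8 CPM in Olfm4CKO replicates 1 and 2, against 121.8 and 53.1 CPM in Ctrl replicates 1 and 2, a log2 fold change of -1.12 ± 0.50 (SE). It was -0.40 without Ctrl replicate 1 and -1.95 without Olfm4CKO replicate 2. In Olfm4CKO both genes were lower in replicate 1, by a ratio between libraries of 2.53 for Nr1d1 and 1.51 for Thra, and in Ctrl the ratios were 2.29 for Nr1d1 and 1.005 for Thra. The part of shared reads in the Thra values was not tested.

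Thrb, encoding TRβ (chromosome 14, 17660261 to 18038090, plus strand), had 24.5 and 47.8 CPM in Olfm4CKO replicates 1 and 2, against 38.8 and 22.4 CPM in Ctrl replicates 1 and 2. The groups overlapped, with Olfm4CKO replicate 2 highest and Ctrl replicate 2 lowest. The log2 fold change of 0.24 ± 0.41 (SE) had a 95% interval from -0.67 to 1.16. It lay between -0.32 without Olfm4CKO replicate 2 and 0.69 without Ctrl replicate 1.

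Within a library, the mix of receptor genes can be read without scaling between libraries. Per kilobase of annotated exon, Thrb made up 16.4% and 20.2% of the summed Thra and Thrb level in Olfm4CKO replicates 1 and 2, against 16.8% and 10.5% in Ctrl replicates 1 and 2. Thra was the larger part in every library. The mean shares of Thrb were 18.3% ± 2.67 in Olfm4CKO and 13.6% ± 4.46 in Ctrl (SD, n = 2 each), with overlapping groups, and the difference of 4.66 percentage points was 1.51 without Ctrl replicate 2 and 7.81 without Ctrl replicate 1. With the longest annotated transcript as the length, the shares of Thrb were 11.1% and 13.8% in Olfm4CKO replicates 1 and 2 and 11.4% and 6.93% in Ctrl replicates 1 and 2.

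**Figure D2:**
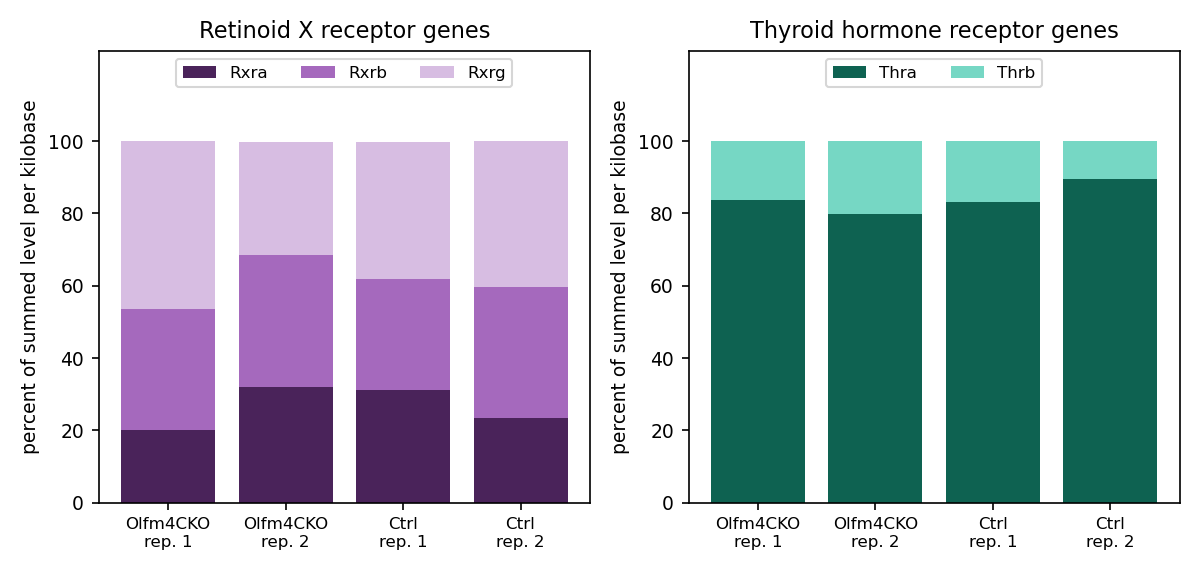
Shares of the summed level per kilobase of annotated exon, in percent, of the 3 RXR genes (left) and the 2 thyroid hormone receptor genes (right) in each library. Thra is the larger part in all 4 libraries, and Rxrg ranges from 31.5% to 46.3% of the RXR level within Olfm4CKO alone.

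The 3 RXR genes had lower mean CPM in Olfm4CKO than in Ctrl, and none passed the test. Their receptors pair with the thyroid hormone receptors and with many other nuclear receptors, so they are shared by several pathways. Rxra, encoding RXRα (chromosome 2, 27676440 to 27762957, plus strand), had 53.6 and 78.4 CPM in Olfm4CKO replicates 1 and 2, against 96.4 and 74.9 CPM in Ctrl replicates 1 and 2. Its groups overlapped, since Olfm4CKO replicate 2 lay above Ctrl replicate 2. Rxra had the smallest unadjusted p of the 9 genes, 0.310, which ranked 2652 of 13573, with a log2 fold change of -0.38 ± 0.35 (SE) and a 95% interval from -1.16 to 0.40. It ran from -0.68 without Olfm4CKO replicate 2 to -0.11 without Olfm4CKO replicate 1.

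Rxrb, encoding RXRβ (chromosome 17, 34031812 to 34038399, plus strand), was at 65.2 CPM in each Olfm4CKO library, against 69.6 and 84.0 CPM in Ctrl replicates 1 and 2. The Olfm4CKO pair lay below the Ctrl pair. The log2 fold change was -0.24 ± 0.33 (SE), with a 95% interval from -0.96 to 0.49, and -0.09 without Ctrl replicate 2. The narrow Olfm4CKO pair should be read beside the coefficient of variation of 25.9% that the fit gave this gene.

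Rxrg, encoding RXRγ (chromosome 1, 167598384 to 167639623, plus strand), had 51.9 and 32.5 CPM in Olfm4CKO replicates 1 and 2, against 49.3 and 53.8 CPM in Ctrl replicates 1 and 2. Olfm4CKO replicate 2 stood below the other 3 libraries, and Olfm4CKO replicate 1 lay within the Ctrl range. The log2 fold change of -0.29 ± 0.35 (SE), with a 95% interval from -1.07 to 0.48, moved to -0.65 once Olfm4CKO replicate 1 was left out and to 0.002 once Olfm4CKO replicate 2 was. Rxrg is also known from skeletal muscle. The 10 muscle markers, all detected, summed to 249 and 47.9 CPM in Olfm4CKO replicates 1 and 2, against 118 and 79.7 CPM in Ctrl replicates 1 and 2, and brown adipocyte markers were lowest in Olfm4CKO replicate 2; the part of either in the Rxrg values was not tested.

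The order of the RXR genes within a library moved between libraries and depended on the length used. With the longest annotated transcript as the length, Rxrb was the largest share in every library. It was then 41.2% and 44.2% in Olfm4CKO replicates 1 and 2, against 38.1% and 43.9% in Ctrl replicates 1 and 2. By that length Rxrg was 40.7% and 27.4% in Olfm4CKO replicates 1 and 2, against 33.6% and 35.1% in Ctrl replicates 1 and 2. The shares that follow are per kilobase of annotated exon. Rxra was 20.1% and 31.9% of the RXR level per kilobase in Olfm4CKO replicates 1 and 2, against 31.1% and 23.5% in Ctrl replicates 1 and 2. Rxrb stayed within 30.9% and 36.5% in all 4. Rxrg was 46.3% and 31.5% in Olfm4CKO replicates 1 and 2, against 37.9% and 40.2% in Ctrl replicates 1 and 2. The groups overlapped for all 3 shares, and the differences between group means were -1.31, 1.49 and -0.18 percentage points for Rxra, Rxrb and Rxrg. With 1 library left out they ran from -7.23 to 4.61 for Rxra, from -1.18 to 4.15 for Rxrb and from -7.55 to 7.2 for Rxrg, so none kept its sign.

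Ncor1, encoding the corepressor that holds the histone deacetylase HDAC3 on receptors without hormone (chromosome 11, 62316426 to 62458541, minus strand), had 102 and 193 CPM in Olfm4CKO replicates 1 and 2, against 142 and 77.0 CPM in Ctrl replicates 1 and 2. The groups overlapped, with the highest value in Olfm4CKO replicate 2 and the lowest in Ctrl replicate 2. The log2 fold change of 0.43 ± 0.43 (SE), with a 95% interval from -0.51 to 1.37, was -0.11 without Olfm4CKO replicate 2, 0.06 without Ctrl replicate 2, 0.83 without Olfm4CKO replicate 1 and 0.94 without Ctrl replicate 1.

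Med1, the Mediator subunit that contacts ligand-bound receptors (chromosome 11, 98152154 to 98193293, minus strand), had 34.5 and 36.6 CPM in Olfm4CKO replicates 1 and 2, against 41.0 and 23.7 CPM in Ctrl replicates 1 and 2. Both Olfm4CKO values lay between the Ctrl values. The log2 fold change of 0.14 ± 0.36 (SE) had a 95% interval from -0.66 to 0.93, and was -0.20 without Ctrl replicate 2 and 0.59 without Ctrl replicate 1. Per kilobase, Ncor1 stood at 2.03 and 3.59 times Med1 in Olfm4CKO replicates 1 and 2, against 2.37 and 2.22 times in Ctrl replicates 1 and 2.

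**Figure D3:**
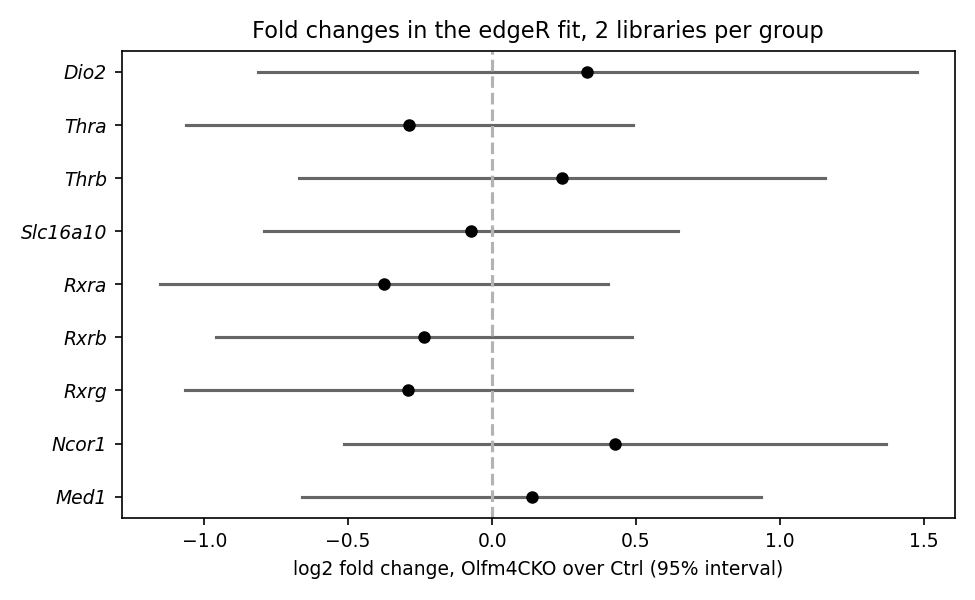
Log2 fold change of each gene, Olfm4CKO over Ctrl, as points with 95% intervals from the edgeR fit on 2 libraries per group. Every interval includes 0, from the smallest estimate at -0.38 for Rxra to the largest at 0.43 for Ncor1.

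The median spread between replicates of the 9 genes lay above that of all genes tested in Olfm4CKO and below it in Ctrl. The median absolute log2 difference between replicates over the 9 genes was 0.60 in Olfm4CKO and 0.36 in Ctrl, against 0.45 and 0.41 over all genes tested. Ctrl replicate 2 held the lowest value of 4 of the 9 genes, namely Dio2, Thrb, Ncor1 and Med1, and Olfm4CKO replicate 1 that of Thra, Slc16a10 and Rxra. Among all genes tested, 27.1% and 27% were lowest in those libraries. Leaving out 1 library moved all 9 log2 fold changes by over 1.5 times or turned them in at least 1 fit, and turned the sign of 6 of them. Without Ctrl replicate 1 alone no sign turned: the values were -0.29 for Thra, -0.10 for Slc16a10, -0.19 for Rxra, -0.37 for Rxrb and -0.35 for Rxrg, beside those given above for the other 4 genes.

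**Figure D4:**
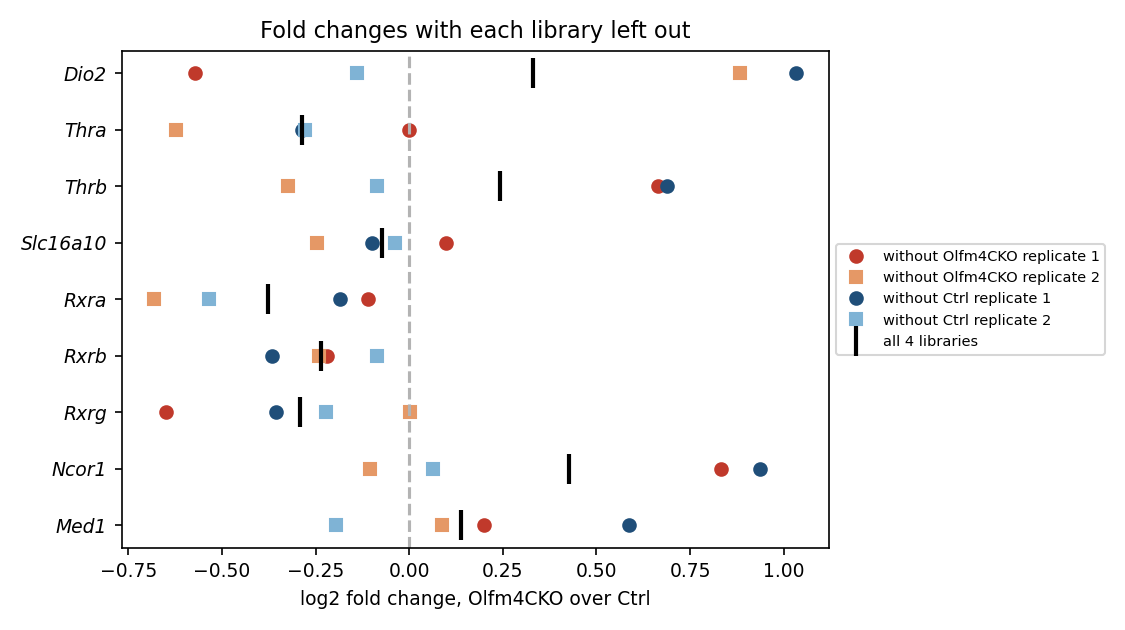
Log2 fold change of each gene with all 4 libraries (black bars) and with each library left out in turn (points). Dio2 runs from -0.57 to 1.03, and points fall on both sides of 0 for 6 of the 9 genes; Thra, Rxra and Rxrb stay at or below 0.

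Levels between genes were compared per kilobase of annotated exon. Dio2 had the highest mean over the 4 libraries, 28.1 CPM per kilobase, followed by Thra with 23.5, Rxrg with 20.4, Rxrb with 17.9, Rxra with 13.9 and then Ncor1. Slc16a10 with 4.68, Thrb with 4.51 and Med1 with 3.88 CPM per kilobase formed the low end. Neighbours in this order overlapped in their ranges over libraries at every step but that between Ncor1, whose lowest value was 6.01, and Slc16a10, whose highest was 5.07. Among 12868 tested genes with an annotated length, Dio2 stood between percentiles 81.3 and 93.1 and Med1 between 45.1 and 56.3. The order depends on the length used: by the longest transcript Thra came first with 44.3 CPM per kilobase and Dio2 stood second with 28.1.

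Dio2 RNA was also set against the receptors that its product serves. The level of Dio2 per kilobase was 2.29 and 0.517 times that of Thra plus Thrb in Olfm4CKO replicates 1 and 2, against 1.11 and 0.530 times in Ctrl replicates 1 and 2. By this length the span within Olfm4CKO covered both Ctrl libraries. With the longest annotated transcript as the length, the ratios were 1.29 and 0.296 in Olfm4CKO replicates 1 and 2. In Ctrl replicates 1 and 2 they were then 0.628 and 0.293, with Ctrl replicate 2 just under the Olfm4CKO span. Whether Dio2 stood above the receptors thus depended on the length used.

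Genes whose levels followed Dio2 most closely were named by the root mean square difference between log2 CPM profiles, each centred on its own mean, over these 4 libraries and 8102 other genes of at least 10 CPM. The 5 closest were Ifit2, an interferon-induced gene, with a difference of 0.0701, Mndal with 0.0817, Arhgap27 with 0.101, Zfp970 with 0.126 and the mitochondrially encoded ND6 with 0.127. ND6 had 5004 and 1508 CPM in Olfm4CKO replicates 1 and 2, against 3047 and 1332 CPM in Ctrl replicates 1 and 2, which is the same order of libraries as Dio2. For Rxrg the closest were Tmub1 (0.0256), Rmdn1 (0.0337), Des (0.0386), which encodes the muscle filament protein desmin, Pigp (0.0405) and Tmem222 (0.0408). These likenesses rest on 4 libraries and are a description of them.

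Genes around the pathway were described from lists given by role, and 0 members of any list were called in either direction in the edgeR fit. Of 11 hormone transporters 6 were tested, 2 above and 4 below 0 (median log2 fold change -0.15). Slc7a8, the carrier LAT2 for amino acids and some iodothyronines, had 5.36 and 7.51 CPM in Olfm4CKO replicates 1 and 2, against 46.7 and 4.92 CPM in Ctrl replicates 1 and 2. Ctrl replicate 1 alone was high. Its log2 fold change of -2.0 ± 0.76 (SE) became 0.38 without that library, and it was called only without Ctrl replicate 2 (-2.85, edgeR adjusted p = 6.953e-06; the largest over the alternatives was 1.00). Slc7a5, which encodes LAT1, stayed between 1.23 and 2.61 CPM in all 4 libraries. The brain carrier Slco1c1 had 1 count in all, and Crym, a hormone-binding protein of the cytosol, had 7 counts in all. Neither was tested.

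**Figure D5:**
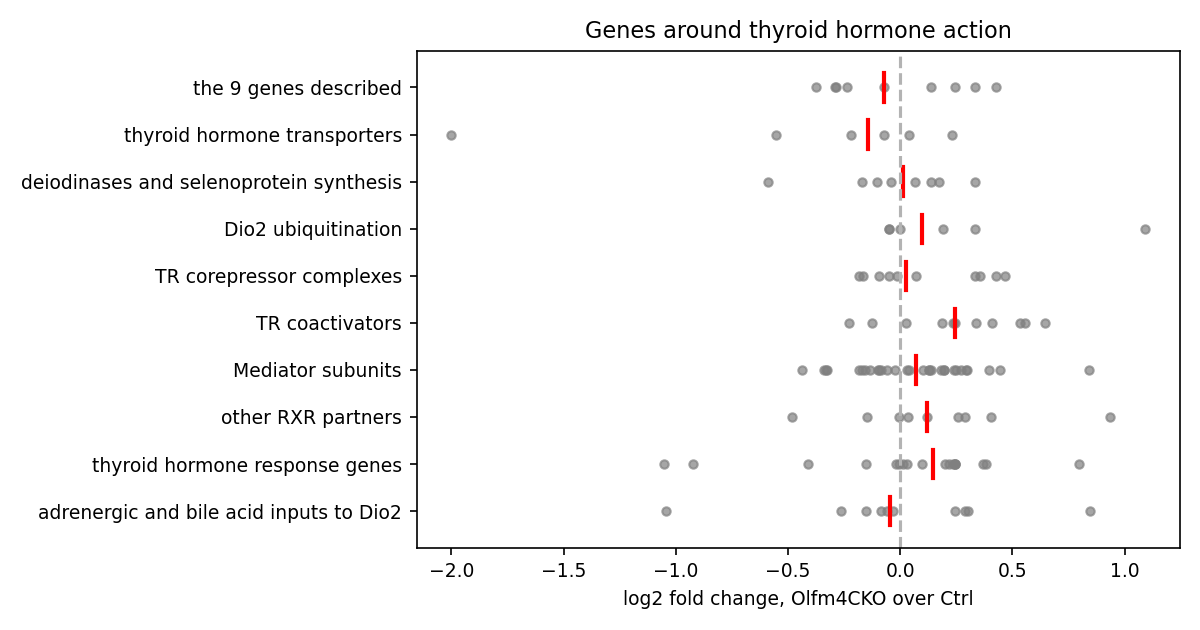
Log2 fold changes (Olfm4CKO over Ctrl) of the tested genes of each list, as grey points, with the median of each list as a red bar. Medians lie between -0.15 for the transporters and 0.24 for the coactivators, and Slc7a8 is the point at -2.0.

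The Dio2 enzyme is short-lived because it is ubiquitinated, and Wsb1 encodes the ligase adaptor that recognises it, while Usp33 encodes an enzyme that removes the ubiquitin. Wsb1 had 26.4 and 24.8 CPM in Olfm4CKO replicates 1 and 2, against 10.96 and 13.04 CPM in Ctrl replicates 1 and 2. Both Olfm4CKO libraries lay above both Ctrl libraries. Its log2 fold change was 1.09 ± 0.34 (SE), with a 95% interval from 0.35 to 1.83 and an unadjusted p of 0.00805, and it did not pass the adjustment over all genes. It stayed between 0.97 and 1.23 whichever library was left out. Usp33 averaged 56.9 ± 3.65 CPM in Olfm4CKO and 45.2 ± 9.41 CPM in Ctrl (SD, n = 2 each), also without overlap, with a log2 fold change of 0.33 ± 0.33 (SE) that was 0.14 without Ctrl replicate 2 and 0.56 without Ctrl replicate 1. Over the 6 tested genes of this list, 3 lay above and 3 below 0, with a median of 0.10. Groups did not overlap for 2 of them (33.3%), both higher in Olfm4CKO. Over all genes tested, groups did not overlap for 24.6% in either direction, and 11.8% lay higher in Olfm4CKO.

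Selenoprotein synthesis is needed to make the enzyme. Of its list with the deiodinases 8 of 13 genes were tested, 4 above and 4 below 0 (median log2 fold change 0.01). Secisbp2, which lets the ribosome read selenocysteine codons, averaged 15.9 ± 0.942 CPM in Olfm4CKO and 14.5 ± 0.515 CPM in Ctrl (SD, n = 2 each), with a log2 fold change of 0.14 ± 0.34 (SE). The upstream list of adrenergic and bile acid inputs had 4 of 10 tested genes above 0 and a median of -0.04. Its log2 fold changes ran from -1.05 to 0.84. Groups did not overlap for 1 of the 10, lower in Olfm4CKO, against 24.6% of all genes tested in either direction. Adrb3, the β3 receptor through which noradrenaline acts on brown adipocytes, had 221 and 167 CPM in Olfm4CKO replicates 1 and 2, against 109 and 302 CPM in Ctrl replicates 1 and 2. Its Ctrl libraries enclosed the Olfm4CKO libraries, and its log2 fold change was -0.09 ± 0.46 (SE).

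Corepressor complex genes had 5 of 10 tested members above 0 (median log2 fold change 0.03). The deacetylase gene Hdac3 (-0.16 ± 0.33 SE) and Tbl1xr1, whose product exchanges corepressors for coactivators (-0.18 ± 0.37 SE), had overlapping groups.

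Coactivator genes had 9 of 11 tested members above 0 (median log2 fold change 0.24). That median was 0.73 without Ctrl replicate 1 and -0.09 without Ctrl replicate 2. The steroid receptor coactivator genes Ncoa1 (0.34 ± 0.37 SE), Ncoa2 (0.23 ± 0.44 SE) and Ncoa3 (0.19 ± 0.35 SE) had overlapping groups. Ppargc1a, the cold-induced coactivator PGC-1α, had 76.7 and 57.2 CPM in Olfm4CKO replicates 1 and 2, against 83.2 and 29.9 CPM in Ctrl replicates 1 and 2. The Ctrl values enclosed the Olfm4CKO values (log2 fold change 0.24 ± 0.46 SE). Mediator subunits, all 30 tested, had 17 above and 13 below 0, with a median of 0.07.

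Other receptors that pair with RXR had 6 of 9 tested members above 0 and a median log2 fold change of 0.12. Pparg, the receptor that drives adipocyte identity, had 261 and 220 CPM in Olfm4CKO replicates 1 and 2, against 360 and 311 CPM in Ctrl replicates 1 and 2. Both Olfm4CKO libraries were lower, with a log2 fold change of -0.48 ± 0.35 (SE). Ppara, a receptor for fatty acids, had 182 and 462 CPM in Olfm4CKO replicates 1 and 2, against 292 and 236 CPM in Ctrl replicates 1 and 2, and its Olfm4CKO libraries enclosed those of Ctrl.

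Genes known to respond to thyroid hormone lay on both sides of 0. Of 18 tested, 12 were above and 6 below (median log2 fold change 0.15), and the median was -0.35 without Olfm4CKO replicate 2. Thrsp, a lipogenic gene long used as a readout of T3, averaged 3793 ± 899 CPM in Olfm4CKO and 3758 ± 2280 CPM in Ctrl (0.01 ± 0.48 SE). Hr, the hairless corepressor, averaged 19.0 ± 3.92 CPM in Olfm4CKO and 19.1 ± 2.45 CPM in Ctrl (-0.01 ± 0.34 SE), and Gpd2, the mitochondrial glycerophosphate dehydrogenase, 971 ± 405 CPM in Olfm4CKO and 951 ± 117 CPM in Ctrl (0.03 ± 0.41 SE; SD, n = 2 each for all). The malic enzyme gene Me1 had a log2 fold change of 0.22 ± 0.49 (SE).

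Klf9, a transcription factor gene induced by T3 and by glucocorticoids, had 46.6 and 105 CPM in Olfm4CKO replicates 1 and 2, against 219 and 67.4 CPM in Ctrl replicates 1 and 2. Ctrl replicate 1 was the high library, and the log2 fold change of -0.92 ± 0.55 (SE) became 0.16 without it. Ucp1, the uncoupling protein gene on which T3 and cyclic AMP converge, had 4815 and 2944 CPM in Olfm4CKO replicates 1 and 2, against 5885 and 10210 CPM in Ctrl replicates 1 and 2. Both Olfm4CKO libraries were below both Ctrl libraries, and the log2 fold change of -1.05 ± 0.45 (SE; unadjusted p = 0.0405) did not pass the adjustment over all genes. It was -0.60 without Ctrl replicate 2 (edgeR unadjusted p = 0.322), -0.75 without Olfm4CKO replicate 2 (edgeR unadjusted p = 0.14), -1.40 without Ctrl replicate 1 and -1.43 without Olfm4CKO replicate 1. Dio2 was highest in Olfm4CKO replicate 1 and Ucp1 in Ctrl replicate 2, the library in which Dio2 was lowest. The other libraries did not follow an opposite order. Ucp1 was lowest in Olfm4CKO replicate 2, where Dio2 was also low at 96.1 CPM, and Ctrl replicate 1 came next to the highest for both genes.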

How the data were processed

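The authors deposited 1 table of whole-number read counts per gene. It is named for FPKM, but its columns sum to different totals and were used as counts. Per the submitters' processing notes, cutadapt 1.11, HISAT2 2.1.0, featureCounts 1.6.0 and mm10 were used; the annotation is not given in the sources used here, nor is the strand setting. Of 35978 rows, 3 lacked counts and were left out.

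edgeR 4.0.16 (R 4.3.3) was run on replicates 1 and 2 of each group: genes kept by filterByExpr (count of 10, total of 15), TMM normalisation, a quasi-likelihood test on group, Benjamini-Hochberg adjustment over all genes at 0.05. A standard error is the log2 fold change over the square root of F. CPM is scaled by TMM; levels per kilobase use GENCODE vM21 exon unions. For counting error alone, the smallest member count, 378 reads, gives 21.8 CPM with an exact Clopper-Pearson 95% interval of 19.7 to 24.2; a count of 0 allows 3 counts. Replicates differed beyond sampling noise (chi-square over its degrees of freedom 130.1 in Olfm4CKO, 85.2 in Ctrl). Replicate 3 of each group was left out, since its values do not follow the gene names.

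In simulated counts for this comparison at the fitted dispersion, with 200 of 13276 genes changed, 0% of 2-fold and 94% of 8-fold changes were recovered. Alternatives covered filter, scaling, DESeq2 1.42.0, limma-voom (limma 3.58.1), replicate number as a block, gene length and each library left out. The 9 genes, the lists (187 of 194 symbols matched) and the named genes, picked by role, were chosen with earlier results of these data known; Ifit2, ND6 and the like follow the likeness rule, and Ddx3y and Xist were named after their values were seen. Some of the genes picked by role are not reported here.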

Additional observations from a re-analysis of the deposited data

How the results depend on the processing

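None of the 9 genes was called under any of the 12 alternatives, the smallest unadjusted p being 0.0611 (Ncor1 without Olfm4CKO replicate 1). Filter, scaling, DESeq2, limma-voom and the replicate block turned no sign among the 9. Over all genes DESeq2 called 1, the replicate block 4, and fits without 1 library 6 to 27, against 0 in the fit on group; a library left alone in its group is then taken to vary as the other pair does. Taken over all genes, same-numbered libraries did not deviate together (correlation 0.0027). With 2 libraries a group this is a single value, and it cannot show whether same-numbered libraries share a source of variation in some genes. The block moved the count of calls from 0 to 4 with 0 of the 9 among them. Log2 fold changes over the libraries left out ran from -0.57 to 1.03 for Dio2, -0.32 to 0.69 for Thrb, -0.25 to 0.10 for Slc16a10, -0.65 to 0.002 for Rxrg, -0.11 to 0.94 for Ncor1 and -0.20 to 0.59 for Med1. Among the other genes named they ran from -0.64 to 0.83 for Adrb3, -0.48 to 0.42 for Gpd2, -0.35 to 0.0104 for Hdac3, -0.24 to 0.21 for Hr, -1.63 to 0.16 for Klf9, -0.37 to 0.99 for Me1, -0.45 to 0.73 for Ncoa2, -0.0928 to 0.55 for Ncoa3, -0.54 to 0.83 for Ppara, -0.31 to 1.16 for Ppargc1a, -2.85 to 0.38 for Slc7a8, -0.56 to 0.34 for Tbl1xr1 and -0.50 to 0.83 for Thrsp. Without a change of sign, Ncoa1 ran from 0.035 (without Olfm4CKO replicate 2) to 0.69 (without Ctrl replicate 1), and Usp33, Nr1d1 and Ucp1 also moved by over 1.5 times, as given above. Values near 0 also turned under other settings: Adrb3 was 0.0804 and Gpd2 -0.0314 under limma-voom, and 0.078 and -0.0305 under the replicate block, Hr 0.0028 under DESeq2 and its size factors and 0.03 with total counts, and Thrsp -0.0081 with upper quartile scaling. The cause was not tested. The 9 genes had 378 to 4160 reads each per library. In simulated counts with 2 libraries a group, 0% of 2-fold changes were recovered at the fitted dispersion and 93% at a far lower one. In those counts the spread between libraries thus limited what could be called. They were drawn with the dispersion typical of genes at a like count, not each gene's own. Why the 9 genes were not called was not tested.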
